A study of Mus musculus with 17 samples.

Results

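A set of 9 genes of caveolae and of transport across endothelium were followed by RNA sequencing of sorted mouse marrow endothelium: the caveolins Cav1 and Cav2, the cavins Cavin1, Cavin2 and Cavin3, the membrane-shaping proteins Ehd2, Ehd4 and Pacsin2, and the diaphragm protein Plvap. They were taken by name, and all 9 were found among the 49585 gene IDs of the count tables. The 17 libraries came from wild-type (WT) mice and from mice lacking the TGF-beta family co-receptor Endoglin (Eng) in endothelium (KO), 2 or 4 weeks after deletion was induced. KO mice carried Cdh5:CreERT2, a Cre recombinase switched on by tamoxifen in cells that use the endothelial Cdh5 promoter, and floxed Eng alleles (Engf/f) in which exons 5 and 6 are flanked by loxP sites. All groups, WT included, were labelled as given tamoxifen, and the series' text places the induction at 8 weeks of age. Whether WT mice carried Cre is not stated. The groups were WT at 2 weeks (n = 4; libraries f1, f4, m2 and m3), KO at 2 weeks (n = 4; f1, f4, m2 and m3), WT at 4 weeks (n = 5; f, f3, m1, m2 and m3) and KO at 4 weeks (n = 4; f2, m1, m2 and m3), where f and m stand for female and male. Cells from crushed long bones were sorted as CD45-, Ter119-, CD31+ and, by the samples' protocol but not the series' design text, Sca1+, and SmartSeq2 libraries were made from their RNA, a full-length method without molecular identifiers. The labels do not say that each library was a separate animal, so p-values measure the spread between these libraries.

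Caveolae are flask-shaped pits of the plasma membrane that are abundant in endothelium. Caveolin-1 inserts into the inner leaflet and is needed for them to form, a coat of cavins stabilises them, and EHD proteins and PACSIN2 act at the neck and on the curvature of the pit. PLVAP builds the thin diaphragms across the openings of endothelial caveolae, transport channels and fenestrae. Endothelial cells use caveolae and clathrin-coated vesicles to carry proteins and lipids between blood and tissue, which is called transcytosis.

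Cav2 and Cav1 lie next to each other on the + strand of mouse chromosome 6 (GRCm38), at 17281185 to 17289115 and 17306335 to 17341452, with 17219 bases between the end of Cav2 and the start of Cav1. Cavin1 lies on the - strand of chromosome 11, at 100956733 to 100970887. Their promoters, 250 bases before to 50 after a start listed by RefSeq, are shown because the caveolins are neighbours and Cavin1 was one of the members that differed with time. They are the first entries for each gene in the RefSeq promoter set of GRCm38.p6, each written in the direction of its gene. The Cavin1 window belongs to a start inside the span given above, and all of it lies within that span. The capitals mark GGGCGG or its reverse complement CCGCCC, the core of the GC box.
Cav1, chr6:17306085-17306384, + strand: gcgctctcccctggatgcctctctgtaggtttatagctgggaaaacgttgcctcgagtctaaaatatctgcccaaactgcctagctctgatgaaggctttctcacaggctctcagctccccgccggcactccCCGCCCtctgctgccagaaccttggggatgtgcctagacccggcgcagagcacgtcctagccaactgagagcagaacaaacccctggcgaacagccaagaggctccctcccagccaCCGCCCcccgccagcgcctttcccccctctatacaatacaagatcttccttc
Cav2, chr6:17280935-17281234, + strand: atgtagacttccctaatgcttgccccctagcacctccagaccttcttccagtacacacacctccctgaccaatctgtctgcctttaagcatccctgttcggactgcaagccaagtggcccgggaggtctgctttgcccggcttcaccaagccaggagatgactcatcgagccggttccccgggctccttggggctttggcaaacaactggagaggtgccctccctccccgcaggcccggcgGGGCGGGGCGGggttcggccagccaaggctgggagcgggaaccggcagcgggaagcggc
Cavin1, chr11:100970568-100970867, - strand: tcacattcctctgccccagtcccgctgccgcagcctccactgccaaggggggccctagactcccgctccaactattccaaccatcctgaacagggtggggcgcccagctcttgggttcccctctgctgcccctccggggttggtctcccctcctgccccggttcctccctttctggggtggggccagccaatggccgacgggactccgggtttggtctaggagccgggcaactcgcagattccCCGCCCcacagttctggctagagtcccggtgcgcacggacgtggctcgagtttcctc
The motif was found on either strand 2 times in Cav1, 2 times in Cav2, with 1 base shared by both matches, and 1 time in Cavin1. Of the 9 members 7 had an entry, and 6 of those 7 held the motif, against 35.9% of 32544 distinct mouse promoters of the same length. The CAGAC letters, a core that SMAD proteins can bind, were found in 3 of the 7 (49.5% of all promoters), and TATAAA in 1 of the 7, Cav1 (13.6% of all promoters). These matches describe the letters of the window only.

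The 2 times differed in library make-up. Each 2-week library held 26705337 to 40882715 counts over 10886 to 13583 genes, with 22.2 to 29.5% of counts from mitochondrial genes. Each 4-week library held 20477400 to 33726630 counts over 15996 to 21235 genes, with 4.66 to 8.99% mitochondrial. The labels give no batch, so that a batch and the time cannot be told apart. Eng, the targeted gene, was at 21.4 to 33.0% of the WT mean in the 2-week KO libraries and at 10.6 to 63.7% in the 4-week KO libraries, where m2 was highest. The KO and WT libraries did not overlap in Eng at either time. The 6 endothelial markers summed to 1830 to 2759 CPM (counts scaled to 1000000 per library) at 2 weeks and to 4610 to 7142 CPM at 4 weeks, and each of the 6 was found in every group. Among other cells, neutrophil markers reached 4025 and 3122 CPM in the 2-week KO libraries m2 and m3, against at most 238 in every other library. Erythroid markers were at 278 to 1240 CPM in KO against 61.4 to 179.6 in WT at 2 weeks, and at 610 to 2881 CPM against 157 to 1261 at 4 weeks. The 9 libraries of 4 weeks fell into 2 sets along the first principal component of 3537 other genes, which held 52.5% of the variance around the group means. WT f3, WT m3, KO f2 and KO m3 were on one side and the other 5 libraries on the other, so each set held both genotypes and both sexes.

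Cav1 was among the most abundant transcripts of these cells. The 9 members together took between 1.03 and 1.30% of all counts in WT libraries of 2 weeks and between 0.983 and 1.18% in KO. Their shares at 4 weeks lay between 1.45 and 1.69% in WT and between 1.34 and 1.45% in KO. There the highest KO library (m1, 1.4452%) lay just below the lowest of WT (m3, 1.4456%), so that the summed share did not overlap. That narrow separation of the sum was not tested, and no single member separated at 4 weeks. Per length of exon, Cav1 was the highest member in all 4 groups, with 1316 ± 146 CPM per kilobase in WT at 2 weeks (SD, n = 4) and 1841 ± 288 at 4 weeks (SD, n = 5). By that level it ranked 30th among 16669 genes detected in WT at 2 weeks and 20th among 24079 at 4 weeks. The lowest members, Ehd4 and Pacsin2, ranked 1399th and 2126th at 2 weeks and 831st and 1880th at 4 weeks.

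At 2 weeks the WT order per kilobase was Cav1, Cavin1 (714 ± 171), Cavin2 (507 ± 84.0), Cav2 (464 ± 79.4), Cavin3 (253 ± 41.4), Plvap (210 ± 59.6), Ehd2 (171 ± 39.3), Ehd4 (34.6 ± 10.9) and Pacsin2 (20.6 ± 14.4). The library ranges of Cavin1, Cavin2 and Cav2 overlapped from each to the next, as did those of Cavin3, Plvap and Ehd2, and of Ehd4 and Pacsin2. At 4 weeks in WT, Plvap (885 ± 204) stood second after Cav1, and Cavin1 (484 ± 102) came after Cavin2 (699 ± 80.3) and Cav2 (505 ± 45.2). The ranges of Plvap and Cavin2 overlapped, and so did those of Cav2, Cavin1 and Cavin3 (339 ± 73.1) in turn. The KO groups had the same order of members as WT at each time.

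**Figure D1:**
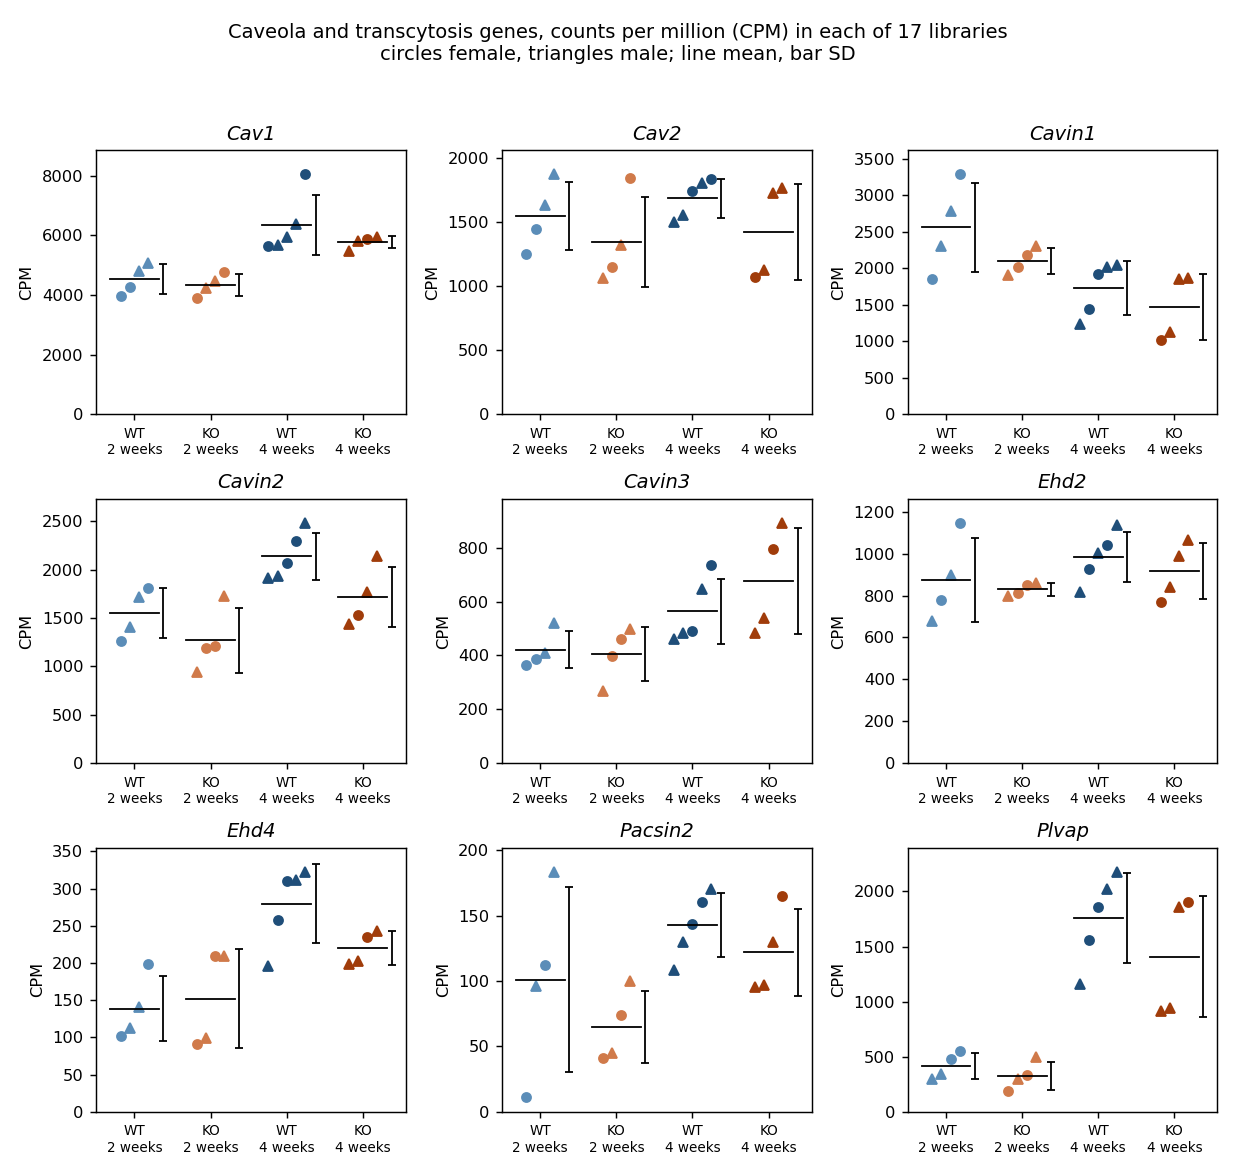
CPM of each member in every library by genotype and time; each panel has its own axis from 0, circles are female and triangles male libraries, lines are group means and bars are SD. KO and WT libraries overlapped for all 9 genes at both times, whereas every Plvap value of 4 weeks lay above every value of 2 weeks.

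The first question was whether the members differed between KO and WT. None passed the test at either time, and neither did Eng itself in these fits (log2 difference -1.96 ± 0.25 at 2 weeks and -1.72 ± 0.50 at 4 weeks, edgeR adjusted p = 0.612 and 0.99973). Eng was called at 2 weeks by DESeq2 (adjusted p = 1.6e-13; 0.381 at 4 weeks) and in edgeR's joint fit over both times (-1.83 ± 0.31, adjusted p = 0.0378), where no member was. A missed threshold does not show that a member was unaltered. Of 9 fitted differences 8 were negative at each time, beside 53.1% and 48.7% of all genes tested, but at 2 weeks the count was 5 with upper quartile scaling and 6 without KO m2 and m3. The members' median log2 difference was -0.20 at 2 weeks and -0.25 at 4 weeks, with -0.06 and 0.01 for all genes. At 2 weeks 0% of 10477 genes were called at an adjusted p under 0.05 and 2.63% had an unadjusted p under 0.05, and for 3.36% the CPM of the groups did not overlap. At 4 weeks these shares of 15209 genes were 0%, 2.77% and 1.19%. No member was called by edgeR's quasi-likelihood test, by DESeq2 or by limma voom, none had an unadjusted p under 0.05 in edgeR's main fits, and for none did the groups separate. In alternatives at 4 weeks, Cavin2 had one with DESeq2, limma voom, no low-count filter, no sex term or a term for the 2 library sets. Cav2 had one with limma voom, and Cav2, Cavin1, Cavin2, Ehd4 and Plvap in some fits with libraries left out. The shares of all genes at that level in the alternatives were not counted. Of all genes DESeq2 called 1.42% at 2 weeks and 0.112% at 4 weeks, and limma voom 0.115% and 0%. In sorted bulk RNA, fewer cells of a type and less RNA per cell cannot be told apart.

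Cav1, the structural protein of the pit, was close in both genotypes. WT libraries at 2 weeks gave 3963, 4280, 4814 and 5076 CPM and KO libraries 3891, 4767, 4472 and 4219. At 4 weeks WT gave 5638, 8036, 6383, 5954 and 5690 CPM and KO 5865, 5942, 5485 and 5797. WT f3 was the highest library, and the KO libraries overlapped the other 4 WT libraries. The log2 difference (KO less WT) was -0.06 ± 0.10 (SE) at 2 weeks and -0.10 ± 0.14 at 4 weeks, and its sign at 4 weeks rested on WT f3, without which it was 0.0021. Cav2, which forms hetero-oligomers with caveolin-1, gave 1442, 1248, 1628 and 1869 CPM in WT and 1145, 1841, 1318 and 1064 in KO at 2 weeks. At 4 weeks it gave 1831, 1739, 1802, 1549 and 1499 CPM in WT and 1072, 1766, 1725 and 1127 in KO. KO f2 and m3 were below every WT library, and KO m1 and m2 were among them. The log2 difference was -0.20 ± 0.22 at 2 weeks and -0.25 ± 0.17 at 4 weeks. It ran from -0.43 without KO f4 to -0.0704 without WT m3 at 2 weeks, and from -0.36 without KO m1 to -0.0615 without KO f2 at 4 weeks.

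Among the cavins, Cavin2, which partners CAVIN1 in the endothelial coat, had the smallest p at 4 weeks, and Cavin1 at 2 weeks. It gave 1266, 1814, 1407 and 1713 CPM in WT and 1193, 1209, 1732 and 937 in KO at 2 weeks. At 4 weeks it gave 2293, 2068, 2481, 1911 and 1931 CPM in WT and 1528, 2140, 1766 and 1441 in KO. At both times 3 of 4 KO libraries were lower than every WT library, and 1 (m2 at 2 weeks, m1 at 4 weeks) lay among them. The log2 difference was -0.30 ± 0.20 at 2 weeks and -0.31 ± 0.14 at 4 weeks, with edgeR adjusted p of 1.0 and 0.99973. With 1 library left out it lay between -0.49 (KO m2 left out) and -0.17 (KO m3 left out) at 2 weeks and ran from -0.42 (without KO m1) to -0.23 (without KO f2) at 4 weeks.

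Cavin1, the coat protein without which caveolae do not form, gave 1860, 3286, 2784 and 2309 CPM in WT and 2179, 2021, 2306 and 1904 in KO at 2 weeks. Its 4-week libraries gave 1920, 1446, 2050, 2016 and 1242 CPM in WT and 1024, 1856, 1873 and 1133 in KO. The genotypes overlapped at both times, with log2 differences of -0.28 ± 0.16 and -0.28 ± 0.22. Leaving out 1 library gave values from -0.40 (without WT f1) to -0.0988 (without WT f4) at 2 weeks, and from -0.44 (without WT m3) to -0.115 (without KO f2) at 4 weeks. Cavin3, a cavin linked to caveola signalling, gave 365, 387, 520 and 410 CPM in WT and 397, 460, 499 and 269 in KO at 2 weeks. At 4 weeks it gave 489, 736, 462, 484 and 647 CPM in WT and 796, 484, 540 and 891 in KO. Cavin3 was the 1 member with a positive difference at 4 weeks, at 0.32 ± 0.24, and its 2 highest libraries were KO. Without KO m3 the difference was 0.0996, and without WT m3 it was 0.43. Its exons share 374 bases with Gm45667, annotated on the other strand and counted at 106 to 355 CPM, and since the strand setting of the counting is not given, reads of that stretch cannot be assigned to either.

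The membrane-shaping proteins overlapped between genotypes as well. Ehd2, an ATPase that holds caveolae at the surface, was at 680 to 1146 CPM in the WT libraries of 2 weeks and at 797 to 861 in the KO ones, and the 4-week libraries spanned 816 to 1137 (WT) and 770 to 1067 (KO). Its log2 difference was -0.06 ± 0.15 and -0.11 ± 0.13, and the latter ran from -0.20 without WT m3 to -0.0138 without KO f2. Ehd4, a related EHD ATPase, was at 101 to 199 CPM (WT) and 90.7 to 209.9 CPM (KO) at 2 weeks, while the 4-week libraries spanned 196 to 323 (WT) and 199 to 243 (KO). Its log2 difference was 0.14 ± 0.39 at 2 weeks and -0.32 ± 0.17 at 4 weeks. Pacsin2, an F-BAR protein that senses and bends membrane, was the least abundant member at 2 weeks, and in WT the most variable. It gave 11.3, 112, 184 and 96.1 CPM in WT and 41.3, 73.7, 100.3 and 45.2 in KO at that time, so that WT f1 was the lowest of the 8 libraries and the other 3 WT libraries overlapped the KO ones. Its log2 difference was -0.51 ± 0.70 at 2 weeks, an interval wider than for any other member, and -0.18 ± 0.18 at 4 weeks, where libraries ranged from 109 to 170 CPM in WT and from 95.3 to 165.5 in KO. The 4-week value was -0.33 without KO f2 and -0.0346 without WT m1, and the 2-week value -0.93 without WT f1.

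Plvap, the diaphragm protein, gave 555, 476, 301 and 340 CPM in WT and 332, 189, 293 and 494 in KO at 2 weeks. At 4 weeks it gave 1863, 1562, 1158, 2027 and 2179 CPM in WT and 1904, 945, 919 and 1860 in KO. KO m1 and m2 were the 2 lowest libraries of 4 weeks and KO f2 and m3 lay among the WT libraries. The log2 difference was -0.34 ± 0.37 at 2 weeks and -0.28 ± 0.29 at 4 weeks. Single libraries moved it, from -0.66 without KO m3 to -0.0548 without KO f4 at 2 weeks, and from -0.52 without KO m3 to -0.13 without KO m2 at 4 weeks.

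The 2-week differences depended on which libraries were included. Without KO m2 and m3, the libraries rich in neutrophil transcripts, the log2 difference was 0.04 for Cav1, 0.13 for Cav2 and 0.16 for Cavin3, all of the other sign, for Ehd4 it was -0.01, and for Pacsin2 -0.10 against -0.51 with all libraries. In the same fit Plvap was at -1.03, Cavin2 at -0.38, Cavin1 at -0.32 and Ehd2 at -0.24, further from 0 than with all libraries. No member was called in that fit (for Plvap, edgeR adjusted p = 0.839), nor was any other gene (0% of 11937). Differences also moved when 1 library with few neutrophil transcripts was left out, though less far for Plvap, Cav2 and Cavin3. Without KO f4, Cav2 was at -0.43, Plvap at -0.0548 and Ehd4 at -0.11, and without WT f4, Pacsin2 was at 0.14 and Ehd2 at 0.0806. The part of neutrophil transcripts in these values was not tested. Markers of other cells that are rich in caveolae were present too: the smooth muscle and pericyte list summed to 879 to 1736 CPM (WT) and 924 to 1098 CPM (KO) at 2 weeks, and the 4-week libraries spanned 758 to 2991 (WT) and 827 to 2166 (KO). Arterial endothelial markers summed to 490.2 to 609.0 CPM (WT) and 319.3 to 490.1 CPM (KO) at 2 weeks. Every KO library was below every WT library, though KO f1 (490.05 CPM) lay just under WT f1 (490.24 CPM). The part of these markers in the members' differences was not tested. Adipocyte markers summed to at most 38.9 CPM in any library, with Lep at 0 in all 4 groups.

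**Figure D2:**
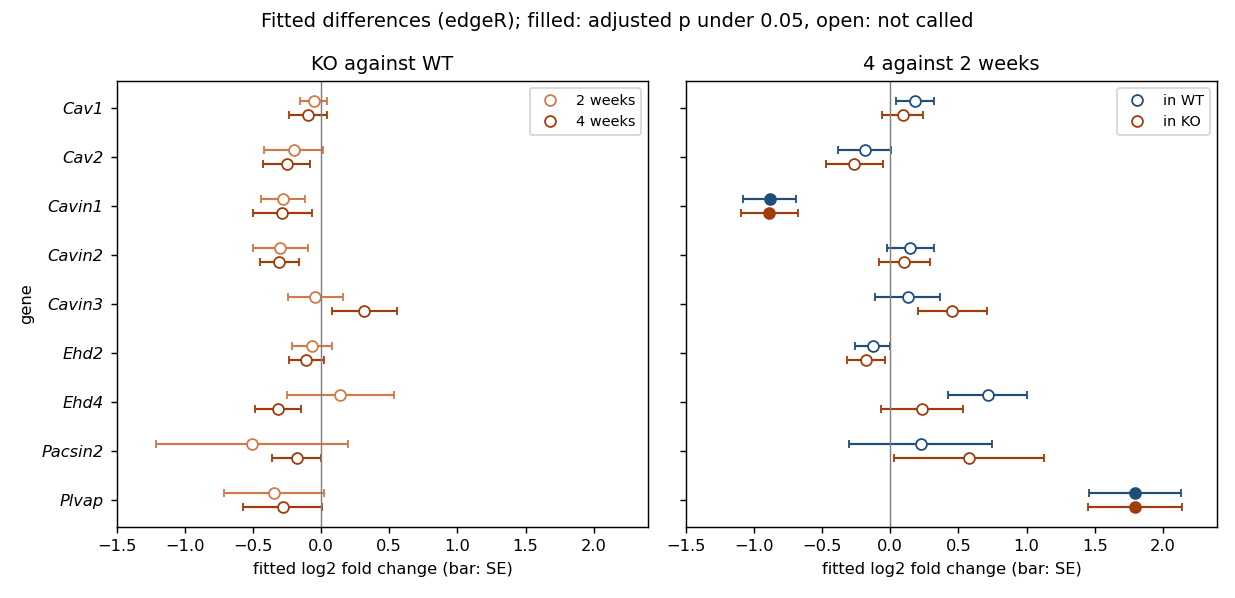
Fitted log2 fold changes of the 9 members with their SE, KO against WT at each time (left) and 4 against 2 weeks in each genotype (right); filled points passed an adjusted p of 0.05 in edgeR's test. The KO differences run from -0.51 to 0.32, and only Plvap and Cavin1 are filled, both on the right.

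In a joint fit of all 17 libraries, the KO difference averaged over both times ranged from -0.40 (Pacsin2) to 0.13 (Cavin3). No member was called, against 0.0962% of 13515 genes. At an unadjusted p under 0.05 the fit gave 1 of 9 members and 11.1% of all genes, so the members' share was near that of all genes. That member was Cavin2, at -0.30 ± 0.13 (edgeR adjusted p = 0.390, 0.152 to 0.682 over the alternatives). Whether the KO difference itself changed between the times was tested directly. No member was called for this (0.104% of all genes were) and none had an unadjusted p under 0.05 (9.48% of all genes did), and DESeq2 and limma voom called none in either comparison, while DESeq2 called 7.43% and 6.87% of all genes and limma voom 0.0666% in each. The change in the KO difference was 0.00082 ± 0.46 on the log2 scale for Plvap and -0.0030 ± 0.28 for Cavin1. Over the alternatives it ran from -0.24 to 0.63 for Plvap and from -0.21 to 0.13 for Cavin1. The extremes among the members were -0.48 ± 0.41 for Ehd4 and 0.35 ± 0.76 for Pacsin2.

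The second comparison was between the times within each genotype, where Plvap rose and Cavin1 fell in WT and in KO. Plvap was at 418 ± 118 CPM in WT at 2 weeks (SD, n = 4) and 1758 ± 406 at 4 weeks (SD, n = 5), and at 327 ± 127 and 1407 ± 549 CPM in KO (SD, n = 4 each). Its highest 2-week library, at 555 CPM, was below its lowest 4-week library, at 919. The fitted difference (4 less 2 weeks) was 1.79 ± 0.34 on the log2 scale in WT, or 3.47-fold (edgeR adjusted p = 0.00505), and 1.80 ± 0.35 in KO (edgeR adjusted p = 0.00605). With limma voom the differences were 1.77 and 1.82, with adjusted p of 0.0765 and 0.118, and Plvap was not called.

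Cavin1 was at 2560 ± 614 CPM in WT at 2 weeks (SD, n = 4) and 1735 ± 367 at 4 weeks (SD, n = 5), and at 2102 ± 176 and 1472 ± 456 CPM in KO (SD, n = 4 each). In KO the lowest 2-week library, at 1904 CPM, was above the highest 4-week library, at 1873, whereas in WT the CPM values of the times overlapped. The fitted difference was -0.88 ± 0.19 in WT (edgeR adjusted p = 0.0132) and -0.89 ± 0.21 in KO (edgeR adjusted p = 0.0207). In KO the call rested on single libraries: it was lost without KO f2 of 4 weeks (-0.75, adjusted p = 0.0918), without KO m3 of 4 weeks (-0.78, adjusted p = 0.0586) and without KO m2 and m3 of 2 weeks together (-0.92, adjusted p = 0.0772).

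These fits scale each library by the trimmed mean of M values (TMM), and on that scale the median of all genes was 0.27 higher at 4 weeks in WT and 0.34 higher in KO. Relative to that shift Plvap was higher by 1.53 in WT and 1.46 in KO, and Cavin1 differed by -1.15 and -1.22. That shift depends on the genes tested and the tool: it was 0.0025 and -0.024 with at least 10 counts in every library, where Plvap was at 1.89 and 1.88 and Cavin1 at -0.77 and -0.77 relative to it, and 1.04 and 1.30 with limma voom, where they were at 0.73 and 0.52 and at -2.04 and -2.24. Of all genes, 8.04% were called in WT and 7.56% in KO, against 2 of 9 members in each. Groups that did not overlap in CPM, in either direction, were found for 19.6% of all genes in WT and 23.8% in KO, and for 3 of 9 members in each: Cav1, Cavin2 and Plvap in WT, and Cav1, Cavin1 and Plvap in KO. Most such genes were higher at 4 weeks, 2350 of 2655 in WT and 2914 of 3214 in KO. Cavin1 in KO was lower, and the other members named were higher. The fitted Cav1 difference was 0.18 ± 0.14 in WT and 0.09 ± 0.15 in KO, and was not called. It lay below the median of all genes, but above it (by 0.28 and 0.20) with at least 10 counts in every library. Ehd4 differed by 0.71 ± 0.29 in WT (edgeR adjusted p = 0.183) and by 0.23 ± 0.30 in KO. The other 5 members ranged from -0.19 (Cav2) to 0.22 (Pacsin2) in WT and from -0.26 (Cav2) to 0.58 (Pacsin2) in KO, with none called. Along with the time, endothelial marker sums were higher and mitochondrial shares lower as given above, and the 5 skeletal muscle markers were at 56.4 to 452 CPM at 2 weeks and 14.7 to 90.6 at 4 weeks. The 5 sinusoidal endothelial markers summed to 23.6 to 210.4 CPM at 2 weeks and 246 to 464 at 4 weeks, without overlap. The 6 arterial endothelial markers summed to 319 to 609 CPM and 727 to 891, also without overlap, and the 4 marrow stromal markers to 0.079 to 50.1 CPM and 27.5 to 140.1. Their part in the differences between the times was not tested.

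Ratios within a library do not depend on its scaling. The ratio of Plvap to Cav1, per kilobase, was 0.0686 to 0.243 in the 8 libraries of 2 weeks (median 0.132) and 0.276 to 0.664 in the 9 of 4 weeks (median 0.556). The ratio of Cavin1 to Cav1 was 0.407 to 0.737 at 2 weeks (median 0.473) and 0.168 to 0.328 at 4 weeks (median 0.300). In both ratios the times did not overlap, in either genotype. The ratios of the other 6 members to Cav1 overlapped between the times: Cav2 was at 0.261 to 0.399 and 0.189 to 0.335, Cavin2 at 0.250 to 0.478 and 0.280 to 0.458, and Ehd2 at 0.0901 to 0.180 and 0.0775 to 0.131. A ratio shows that 2 genes changed unequally and not which of them changed.

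**Figure D3:**
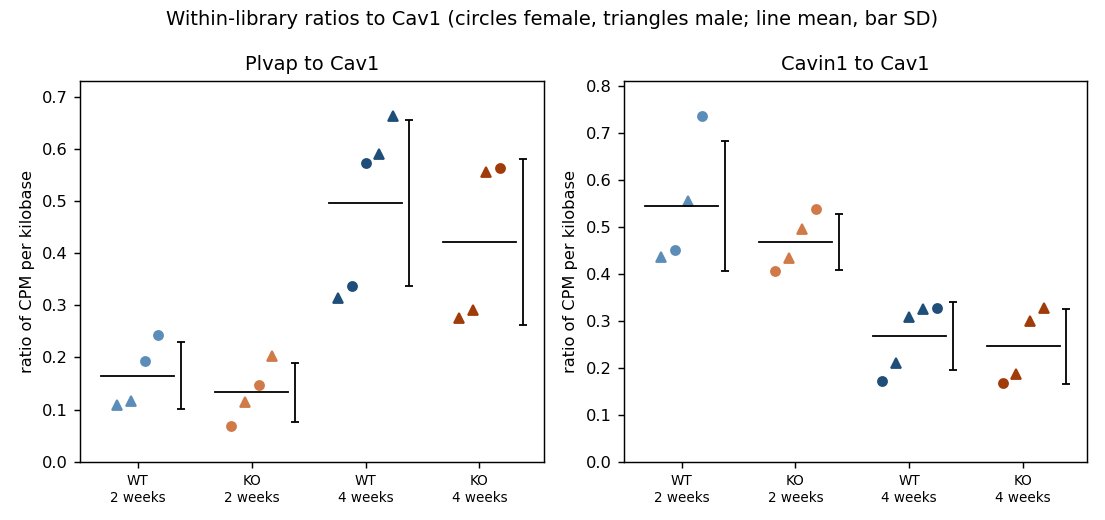
Ratio of Plvap (left) and Cavin1 (right) to Cav1 in each library, from CPM per kilobase of exon; circles are female and triangles male libraries, lines are group means and bars SD. Every 4-week library lies above the 2-week libraries for Plvap, from 0.276 up, and below them for Cavin1, from 0.328 down.

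Within the 4-week groups some members varied together and others did not. Cavin1 was at 1024 to 1446 CPM in WT f3, WT m3, KO f2 and KO m3 and at 1856 to 2050 in the other 5 libraries. Cavin3 had the opposite arrangement, at 647 to 891 CPM in the same 4 libraries and 462 to 540 in the other 5. Ehd2 was arranged like Cavin1, at 770 to 925 CPM in the 4 and 990 to 1137 in the 5. The other members overlapped between the sets. These are the 2 sets drawn from a principal component of other genes, so a split between them is not particular to the members. How large a share of all genes split in this way was not counted. Smooth muscle and pericyte markers summed to 758 to 995 CPM in the 4 and to 1324 to 2991 CPM in the 5, and endothelial markers to 4610 to 5456 and 6195 to 7142 CPM. Marker genes were not kept out of that component, so the split of these markers is not independent of the sets. Their part in these values was not tested. Plvap did not follow the sets in WT, where f and m2 were near m3, but in KO it was at 1904 and 1860 CPM in f2 and m3 and at 945 and 919 in m1 and m2. Eng did not follow them either: the KO libraries with the least Eng, m3 and m1, were in different sets. With a term for the sets, no member and 0% of all genes were called at 4 weeks, and the KO difference was -0.28 for Cavin2, -0.35 for Ehd4, -0.20 for Cavin1, 0.20 for Cavin3 and -0.43 for Plvap.

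**Figure D4:**
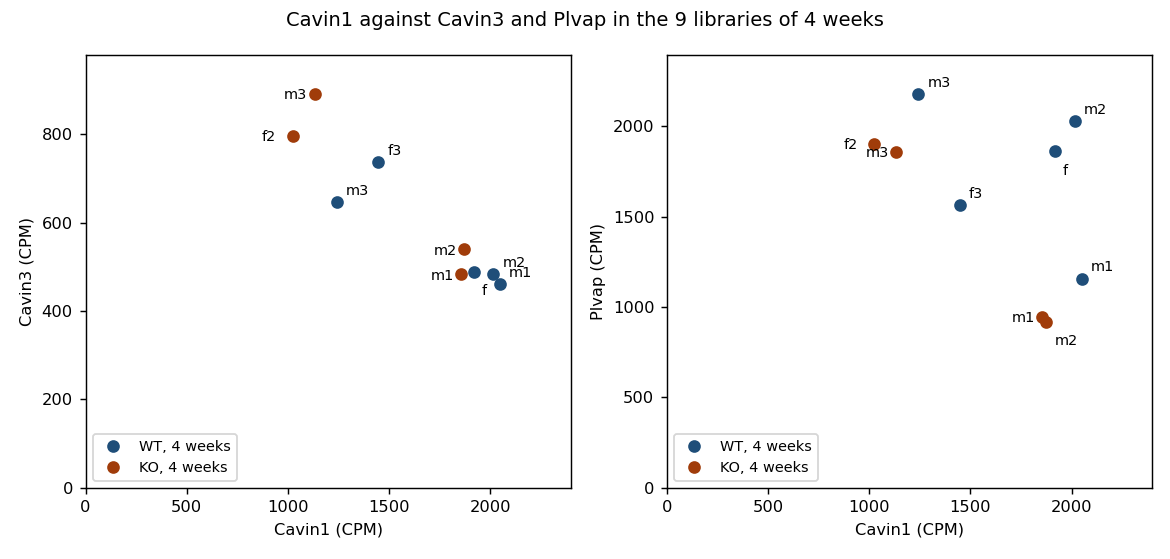
Cavin1 (horizontal, CPM) against Cavin3 and Plvap (vertical, CPM) in the 9 libraries of 4 weeks, each point 1 library named by its label. The 4 libraries with the least Cavin1, 1024 to 1446 CPM, have the most Cavin3, and both genotypes are present on each side.

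The genes whose levels most resembled Cav1 and Plvap were ranked by the correlation of their deviations from group means over 17 libraries, among 2969 abundant genes. For Cav1 they were mt-Rnr2, the mitochondrial large ribosomal RNA (Pearson r = 0.81, Spearman rho = 0.76, r = 0.69 without the 2 libraries farthest from the median of Cav1), Ly6c1, a surface antigen of endothelium (0.79, 0.61 and 0.54), and Ccdc85b (0.79, 0.84 and 0.77). For Plvap they were Ccnd1, the cell-cycle protein cyclin D1 (0.87, 0.85 and 0.88), Cyba, a subunit of NADPH oxidase (0.85, 0.88 and 0.76), and Selenop, a secreted selenium carrier (0.82, 0.88 and 0.80). Among the members, Plvap varied against Cav2 (r = -0.79, rho = -0.81, -0.74 without the 2 farthest) and Cavin1 (-0.60, -0.54 and -0.74), and was weakly related to Cav1 (-0.16, -0.16 and -0.16). Its values were also negative with Cavin2 (-0.48, -0.57 and -0.47), Ehd2 (-0.41, -0.44 and -0.51) and Pacsin2 (-0.34, -0.29 and -0.33). They were positive with Cavin3 (0.10, 0.12 and 0.42) and Ehd4 (0.01, 0.01 and 0.37). Cav1 was more alike to Cavin3 (0.53, 0.45 and 0.39), Pacsin2 (0.48, 0.58 and 0.59) and Cav2 (0.45, 0.33 and 0.31) than to Cavin1 (-0.04, -0.11 and 0.06). All values within a library share its depth, its composition and, at 4 weeks, its set, and they are given as a description.

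A further 54 genes of caveolae, transcytosis and clathrin-coated vesicles were listed. Of these 41 were abundant enough for the test at 2 weeks and 47 at 4 weeks. None was called in KO against WT at either time, and 3 of 41 and 2 of 47 had an unadjusted p under 0.05, beside 2.63% and 2.77% of all genes. In the receptor list the smallest p belonged at both times to Scarb1. This scavenger receptor that carries HDL and LDL in endothelium was at 606 to 875 CPM (WT) and 304 to 628 CPM (KO) at 2 weeks, and the 4-week libraries spanned 1043 to 1721 (WT) and 703 to 1052.5 (KO). Its log2 difference was -0.49 ± 0.21 and -0.48 ± 0.17, with edgeR adjusted p of 1.0 and 0.99973. Cd36, a fatty acid transporter found in caveolae, had the smallest p of the caveola-associated list at 2 weeks and was at 2952 to 4062 CPM (WT) and 2457 to 3121 CPM (KO), with a log2 difference of -0.37 ± 0.13 (edgeR adjusted p = 1.0). In the other lists the smallest p belonged at 2 weeks to the EHD ATPase Ehd1 (-0.31 ± 0.23), the clathrin adaptor subunit Ap2m1 (-0.29 ± 0.12) and Snap23 (-0.52 ± 0.37). At 4 weeks it belonged to the EHD ATPase Ehd3 (-0.60 ± 0.32), the BMP receptor Bmpr2 (-0.30 ± 0.24), the clathrin adaptor Epn2 (-0.67 ± 0.32) and the fusion ATPase Nsf (0.31 ± 0.18). For the caveola-associated receptors and signalling proteins, 5 of 9 tested genes had a negative difference at 2 weeks (median -0.13) and 9 of 10 at 4 weeks (median -0.25), and for the clathrin coat proteins 10 of 12 had one at 2 weeks (median -0.26) and 6 of 12 at 4 weeks (median -0.00030). At 2 and 4 weeks the counts were 5 of 8 and 6 of 10 for caveola paralogs and accessory proteins. They were 2 of 4 and 4 of 7 for transcytosis receptors and regulators, and 6 of 8 and 4 of 8 for vesicle docking and fusion proteins. Over all lists 28 of 41 and 29 of 47 were negative, beside 53.1% and 48.7% of all genes tested.

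Between the times, 3 of 46 tested genes of these lists were called in WT and 3 of 46 in KO, no larger a share than the 8.04% and 7.56% of all genes. Gpihbp1, which carries lipoprotein lipase across capillary endothelium, rose in both genotypes, from 644 to 761 CPM at 2 weeks to 1091 to 1745 at 4 weeks in WT (log2 difference 0.65 ± 0.14, edgeR adjusted p = 0.0110) and from 553 to 1031.5 to 1332 to 1735.5 CPM in KO (0.93 ± 0.15, edgeR adjusted p = 0.00204). Snap23, a membrane fusion protein, fell in WT from 101 to 223 CPM to 68.2 to 113.9 (-1.06 ± 0.28, edgeR adjusted p = 0.0325). Its call was lost in 8 of 24 alternatives, which included leaving out any single 4-week WT library, or WT f4 or m3 of 2 weeks (adjusted p up to 0.0918). In KO, Cd36 rose from 2457 to 3121 CPM to 4567 to 8271 (0.75 ± 0.18, edgeR adjusted p = 0.0179; 0.0533 without KO m3 of 2 weeks, 0.0765 without KO m2 and m3 of 2 weeks, 0.160 with limma voom), and Flot2, a flotillin of non-caveolar membrane domains, fell from 167 to 403 CPM to 109 to 119 (-1.42 ± 0.33, edgeR adjusted p = 0.0185; 0.0545 without KO f2 of 4 weeks). Nostrin, an adaptor that moves endothelial nitric oxide synthase off the membrane, was called in WT; it had 0 counts in all 4 WT libraries of 2 weeks, which allows up to 0.0921 CPM in the shallowest, and 228 to 805 counts in each WT library of 4 weeks. KO libraries of 2 weeks were split, with 0 counts in f1 and 341 to 1065 in the other 3.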

How the data were processed

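The authors deposited a table of raw read counts per Ensembl gene for each of 17 libraries; cutadapt, STAR and HTSeq 0.6.1p1 and the builds GRCm38 and mm10 are named in the submitters' processing notes, while the annotation and strand setting are not given in the sources used here. Symbols, exon lengths and overlaps came from GENCODE M21 (GRCm38). CPM are counts scaled to 1000000 per library. Counts were tested with edgeR 4.0.16 (TMM, filterByExpr, robust quasi-likelihood, sex as covariate; R 4.3.3), at each time alone and jointly, with Benjamini-Hochberg adjustment over all genes of a fit and a threshold of 0.05. SE is the absolute log2 difference divided by the square root of F. DESeq2 1.42.0, limma 3.58.1 (voom with quality weights), other scalings and filters, a replicate block and leaving out libraries were alternatives. The fits were tested on simulated data. The members and gene lists were chosen with earlier results of these data known. All members and Eng were named by rule. So were, in each of the other lists, the gene with the smallest p per KO comparison and the called genes between times in WT; Gm45667, and Cd36 and Flot2 between times in KO, were chosen after their values were seen. Over 3546 genes, deviations of same-numbered WT and KO libraries correlated at 0.46, 0.17 and 0.58 at 4 weeks, and at -0.05 to 0.04 at 2 weeks. All 3 pairs of 4 weeks passed the 0.1 taken to pair libraries, but differently numbered libraries of the same 4-week set correlated at 0.20 to 0.60, so the numbers cannot be told apart from the sets. Intervals from counts cover counting error only, and a count of 0 was read as up to 3 counts.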

Additional observations from a re-analysis of the deposited data

How the results depend on the processing

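No alternative called a member in KO against WT at either time, in the common KO difference or in the change of the KO difference between the times, where at most 1.42% (2 weeks), 0.112% (4 weeks), 7.43% and 6.87% of all genes were called. The paired fits with the replicate block called 0 members and 0% of all genes at 2 and at 4 weeks and changed no call; under the block the 4-week difference was -0.54 for Plvap, -0.23 for Cavin2, -0.0793 for Cav2, -0.112 for Cavin1 and -0.00487 for Ehd2, and that fit rests on the 3 male pairs. Between the times the direction of Plvap and Cavin1 held in every alternative, at 1.65 to 1.92 and -1.002 to -0.71 in WT and at 1.57 to 2.46 and -0.99 to -0.75 in KO. With limma voom 1 member, Cavin1, was called in WT and 1, Cavin1, in KO, beside 10.7% and 10.1% of all genes. Without the 2-week KO libraries m2 and m3 together, an alternative chosen after seeing the data as was the term for the 4-week sets, 1 member, Plvap, was called in KO (9.47% of all genes), and leaving out 1 library at a time gave 1 to 2 calls, beside 4.04 to 9.97% of all genes in WT and 4.42 to 9.35% in KO.

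Signs changed only among differences that were not called, and the cause was not tested. With upper quartile scaling the 2-week KO difference was 0.0116 for Cav1, 0.0280 for Cavin3 and 0.00281 for Ehd2. Without m2 and m3 together it was 0.0445 for Cav1, 0.126 for Cav2, 0.160 for Cavin3 and -0.0110 for Ehd4. The change of the KO difference for Cavin1 was 0.00452 with DESeq2 size factors, 0.00453 with DESeq2, 0.0580 with limma voom and 0.0288 without the sex term, and for Plvap it was -0.0130 with no filter and -0.0364 with at least 10 counts in every library. Leaving out 1 library at a time moved the 2-week KO difference between -0.150 and 0.00738 for Cav1, -0.170 and 0.136 for Cavin3, -0.151 and 0.0806 for Ehd2, -0.118 and 0.386 for Ehd4, and -0.927 and 0.143 for Pacsin2, and the 4-week difference of Cav1 between -0.162 and 0.00209. It moved the change of the KO difference between -0.211 and 0.134 for Cavin1, -0.243 and 0.354 for Plvap, and -0.0767 and 0.780 for Pacsin2. Between the times it moved Cavin3 between -0.0382 and 0.252, Ehd2 between -0.213 and 0.0186 and Pacsin2 between -0.186 and 0.621 in WT, and Cavin2 between -0.0279 and 0.326 in KO. The spread of low genes such as Pacsin2 at 2 weeks limits what could be detected there.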
